A study of Rattus norvegicus with 13 samples.

Results

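miR-204 is a microRNA of the renal tubule, and its mature 5′ strand, miR-204-5p, was followed here in 13 rat kidneys. It was found by name, rno-miR-204-5p, among the mature rat miRNAs of the count table, where it is 1 of 460. The 3′ strand, rno-miR-204-3p, belongs to the same precursor but was not analysed here, so that all values are of miR-204-5p. The rats were female WAG/RijCmcr animals, a Wistar strain bred to be uniform, and at irradiation were 11 to 12 weeks old with a weight near 155 g. Controls (n = 4) had 0 Gy and no drug. The irradiated group (n = 4) was exposed to a total of 13 Gy, given as X-rays from a 320 kVp source at a rate of 1.75 Gy per minute, with a hind limb kept out of the beam. A further group (n = 5) had the same 13 Gy and, starting on day 7, drank lisinopril, which blocks angiotensin converting enzyme, at a daily dose of about 24 mg per square metre. The protocol also lists saline injections at 40 ml per kg per day on days 3 to 7 and the antibiotic enrofloxacin at 10 mg per kg per day up to day 14, without saying whether unirradiated rats had them. Every kidney was taken on day 35. No group with lisinopril and without irradiation was analysed here, so the drug can be read only in irradiated rats.

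A mature miRNA of this kind guides an Argonaute protein to messenger RNAs, chiefly through its seed, the bases at positions 2 to 8, and lowers their translation and stability. miR-204-5p is best known from the retinal pigment epithelium, the choroid plexus, the pancreatic islet and the kidney tubule, and from studies in which it helps to keep epithelial cells differentiated. Its gene lies in an intron of Trpm3, which encodes a cation channel. Its close relative miR-211 lies in Trpm1, which encodes a related channel and is known from pigment cells. In the GRCr8 annotation Mir204 fell within Trpm3 and Mir211 within Trpm1, and no other annotated gene enclosed either.

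The sequences below, from RefSeq on GRCr8, show the counted strand, its unanalysed partner and the relative with the same seed. Capitals mark the seed in the mature strands and both mature strands in the hairpin.
miR-204-5p: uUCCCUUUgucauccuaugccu
miR-204-3p: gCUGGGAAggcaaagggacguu
miR-211-5p: uUCCCUUUgucauccuuugccu
Mir204 hairpin: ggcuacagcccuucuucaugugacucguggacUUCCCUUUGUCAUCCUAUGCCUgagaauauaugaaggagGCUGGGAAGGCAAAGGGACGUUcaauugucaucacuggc

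Of 693 mature rat miRNA names in that table, 2 carry the seed of the 5′ strand, miR-204-5p and miR-211-5p, and both were counted. The seed of the 3′ strand was found in miR-204-3p alone. The mature 5′ strands of miR-204 and miR-211 share 21 of 22 bases. The difference is A17U, counted from the 5′ end of miR-204-5p, which lies outside the seed. The rule by which reads fitting both were assigned is unknown here.

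The libraries held 1194175 to 11095939 counts of rat mature miRNAs, and control library 2 was the shallowest by far. Among the 22 miRNAs of renal tubule and epithelium listed for this study, all 22 were present in every library, with miR-10a-5p as the most abundant. Their sum was 418204 to 808145 CPM (read counts scaled to a library size adjusted by TMM, the trimmed mean of M-values). The liver, neural and skeletal muscle markers miR-122-5p, miR-124-3p and miR-206-3p were not analysed here. Adjusted p-values come from the quasi-likelihood test of edgeR, and the Benjamini-Hochberg adjustment runs over the 419 miRNAs that passed a filter on low counts. Both miR-204-5p and its neighbours in level passed it, whereas miR-211-5p did not.

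In unirradiated kidneys miR-204-5p was a miRNA of middle abundance. Its counts were 1593, 220, 2166 and 1933 in control libraries 1 to 4. Scaled to library size, these were 205, 234, 209 and 228 CPM, with a mean of 219 ± 14.2 CPM (SD, n = 4). The 4 controls thus lay within a narrow band, and the highest value came from the shallowest library, where the 220 reads alone allow 204 to 267 CPM (exact 95% Poisson interval, counting error only).

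By mean level in controls miR-204-5p ranked 112 of 460. The ranks just above belonged to miR-3585-5p at 230 ± 46.5 CPM and miR-142-5p, a leukocyte miRNA, at 226 ± 69.6 CPM. Just below came miR-322-3p at 212 ± 15.6 CPM and miR-3068-3p at 204 ± 23.9 CPM (SD, n = 4 each). The control values of these 4 all overlapped those of miR-204-5p, so their order is not resolved by these libraries. Mature miRNAs are of nearly equal length, but capture in library preparation differs between sequences, and levels of different miRNAs are comparable only roughly. miR-10a-5p, the most abundant, was at 396287 ± 117105 CPM in the same libraries, and miR-196a-5p, a miRNA of the Hox gene clusters, at 306 ± 21.4 CPM.

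**Figure D1:**
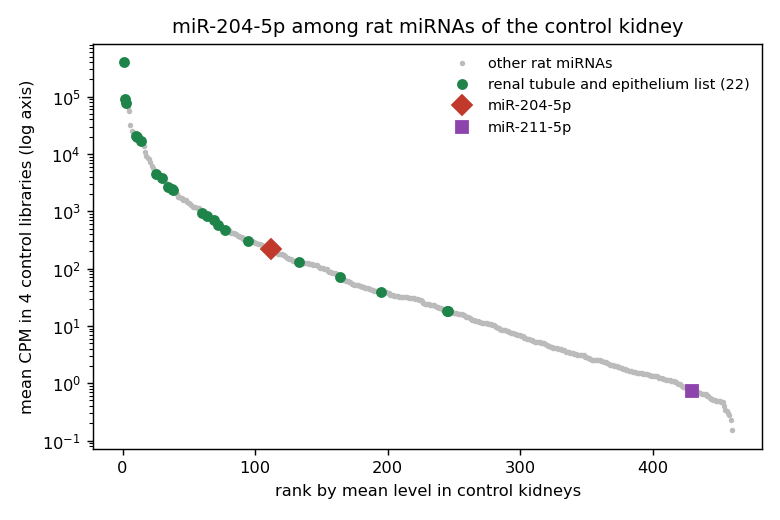
Mean CPM of each rat miRNA in the 4 control libraries (log axis) against its rank, with the 22 miRNAs of renal tubule and epithelium in green. miR-204-5p (red) stands at rank 112 with 219 CPM, and miR-211-5p (purple) lies near the bottom at 0.743 CPM.

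miR-211-5p, with the same seed, was close to the limit of detection. Its counts were 5, 1, 7 and 5 in controls, 3, 6, 2 and 3 in irradiated kidneys, and 3, 6, 10, 9 and 6 with lisinopril. In 5 of the 13 libraries it had no more than 3 counts, so no fold between groups is given for it. Over all libraries there were 23494 reads of miR-204-5p and 66 of miR-211-5p. Reads of miR-211-5p made up 0.28% of the reads of this seed (exact binomial 95% interval 0.217% to 0.356%, counting error only), and 0.104% to 0.452% in single libraries. Nearly all reads with this seed were thus assigned to miR-204-5p.

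In irradiated kidneys without lisinopril the level of miR-204-5p was centred near that of controls but spread more widely. It was at 226, 243, 267 and 169 CPM in irradiated libraries 1 to 4, with a mean of 226 ± 41.6 CPM (SD, n = 4). Libraries 2 and 3 lay above every control, library 1 lay among the controls, and library 4 held the lowest value of all 13 libraries. Counting error does not span that gap, since the 1003 reads of library 4 allow 159 to 180 CPM. Relative to the mean, the spread was 18.4% in this group, against 6.47% in controls and 7.61% with lisinopril, and these spreads were not compared by a test.

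The comparison of irradiated with control kidneys asks how kidneys irradiated without lisinopril differed from unirradiated ones on day 35. If only irradiated rats had the saline and enrofloxacin, their effect cannot be told apart from that of irradiation. The log2 fold change of miR-204-5p was 0.05 (SE 0.138, adjusted p = 0.852). This is a 1.03-fold difference, with a 95% interval from 0.843-fold to 1.27-fold. It was smaller than the spread between rats, and an exact permutation test of log2 CPM (two-sided, as are all such tests here) gave p = 0.886. Over all 419 miRNAs edgeR called 7, or 1.67%, and the median log2 fold change was 0.02. Only 45 of the 419 had a smaller absolute log2 fold change than miR-204-5p. Without irradiated library 4 its log2 fold change was 0.18 (adjusted p = 0.298), and without irradiated library 3 it was -0.037 (adjusted p = 0.928).

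With lisinopril after irradiation, miR-204-5p was at 267, 262, 288, 246 and 237 CPM in libraries 1 to 5, with a mean of 260 ± 19.8 CPM (SD, n = 5). All 5 values lay above the highest control, but the lowest of them was 237 CPM and the highest control 234 CPM, which is within the counting error of that control. The 2 groups are thus separated in order but not by a clear gap.

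Against controls, the log2 fold change with lisinopril was 0.25 (SE 0.131, adjusted p = 0.285), and it did not pass the test. The fold was 1.19, with a 95% interval from 0.979-fold to 1.44-fold. The exact permutation test gave p = 0.0159, the smallest that 5 against 4 allows, and p = 0.0635 after Benjamini-Hochberg adjustment over the 4 comparisons of miR-204-5p. Groups that did not overlap were found for 13.4% of the 419 miRNAs in this comparison, and 6.21% were called by edgeR, so the separation is shared by many miRNAs. It also depended on the scaling of the libraries. With size factors by RLE, 4 of 5 treated libraries lay above every control, and with library totals alone 3 of 5 did, while upper quartile scaling kept all 5.

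**Figure D2:**
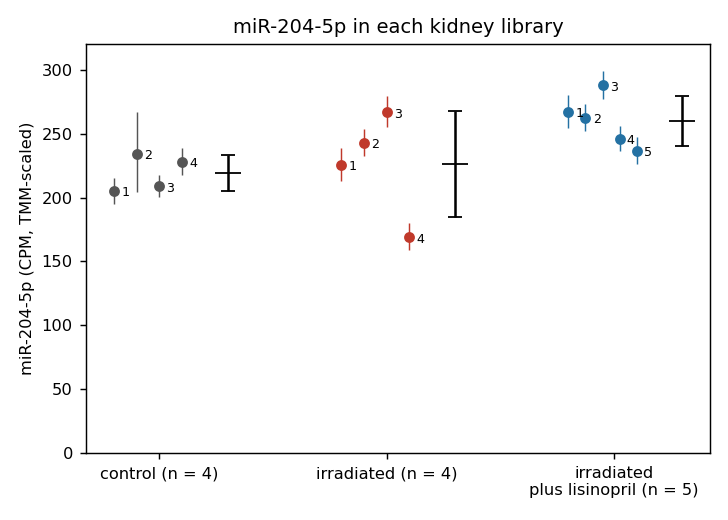
CPM of miR-204-5p in each library (points, numbered by replicate, with exact 95% Poisson intervals of the counts) and the group mean ± SD beside them in black. Controls lie between 205 and 234 CPM and lisinopril-treated kidneys between 237 and 288 CPM, while irradiated kidneys without the drug run from 169 to 267 CPM.

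The comparison of irradiated kidneys with and without lisinopril asks what the drug added. miR-204-5p was at 260 ± 19.8 CPM with the drug (n = 5) and 226 ± 41.6 CPM without it (n = 4). Of the 5 treated libraries, 2 lay above the highest untreated one, and the groups overlapped. On the log2 scale the difference was 0.20 (SE 0.131, adjusted p = 0.435), or 1.15-fold with a 95% interval from 0.948-fold to 1.39-fold. The exact permutation p was 0.159. The edgeR test called 0 of the 419 miRNAs here (0%), with 63 (15%) at an unadjusted p under 0.05, while DESeq2 called 11 and limma-voom 2. The difference rested largely on irradiated library 4. Without it the log2 fold change was 0.06 (adjusted p = 0.735).

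With both irradiated groups averaged at equal weight, miR-204-5p stood 0.15 above control on the log2 scale (SE 0.118, adjusted p = 0.488). This is 1.11-fold, with a 95% interval from 0.93-fold to 1.32-fold, and it did not pass. Of the 9 irradiated rats 7 lay above every control and 1 lay below every control. Permuting 9 against 4 exactly gave p = 0.263. Over all miRNAs 7.64% were called in this comparison, 2.15% as higher and 5.49% as lower. Without irradiated library 4 the log2 fold change was 0.21 (adjusted p = 0.165 by edgeR), and the exact permutation test gave p = 0.0121, or 0.0317 adjusted over the 4 comparisons. The library left out was the 1 below every control, and this permutation alternative was added after the data were seen. Its small p therefore follows largely from which value was removed. The comparisons with control use the same 4 control libraries, so their values are not independent of each other. In whole kidney, fewer cells of a type and less RNA per cell cannot be told apart.

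**Figure D3:**
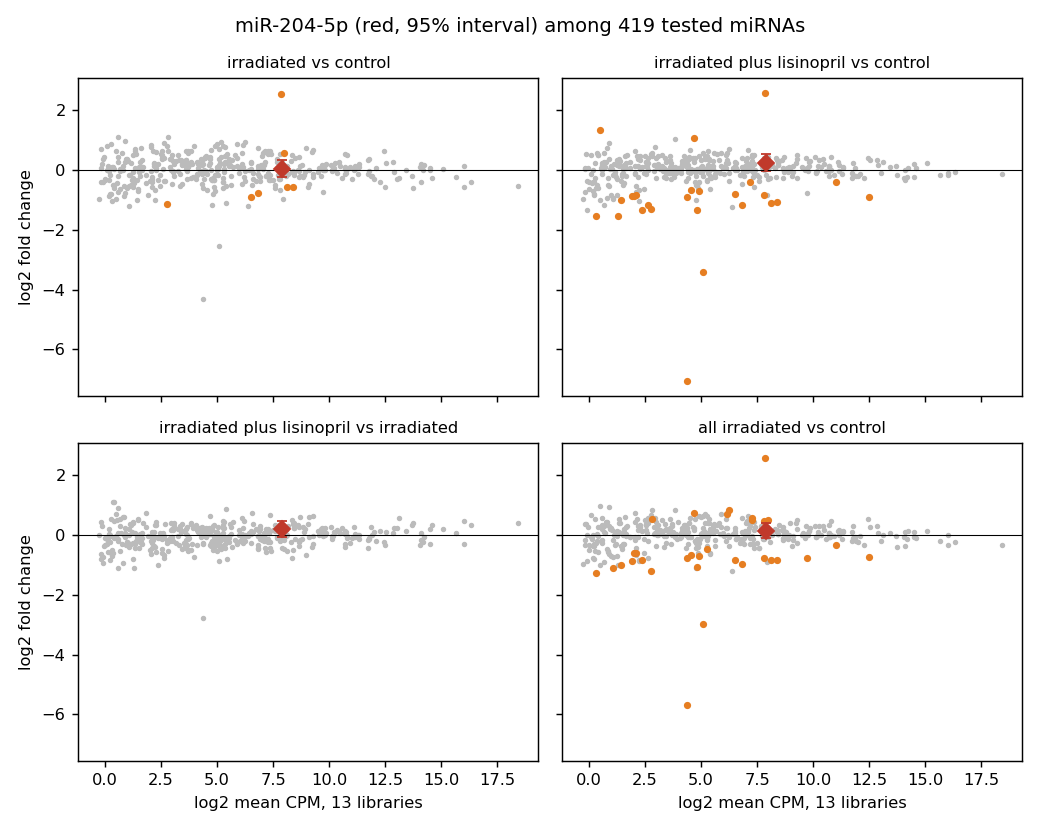
Log2 fold change of each of 419 miRNAs against its log2 mean CPM over 13 libraries, in 4 comparisons, with called miRNAs in orange. miR-204-5p (red, with its 95% interval) lies inside the grey cloud each time, at 0.05, 0.25, 0.20 and 0.15.

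Scaling mattered for the size of these differences. With library totals alone in place of TMM, the log2 fold change of miR-204-5p in irradiated against control kidneys became 0.31, and the median of all 419 miRNAs became 0.26. Between irradiated kidneys with and without the drug it became 0.01, with a median of all miRNAs of -0.21. Measured from the median of all miRNAs under the same scaling, miR-204-5p moved little among TMM, RLE, upper quartile and library totals. It stood 0.02 to 0.06 above the median in irradiated against control kidneys, 0.20 to 0.23 above it with lisinopril against control, and 0.22 to 0.23 above it with against without the drug. None of its adjusted p-values under these scalings passed.

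Within groups miR-204-5p was among the steadier miRNAs of the kidney. The SD of its log2 CPM around the group means was 0.178, against a median of 0.302 over 419 miRNAs, and 56 of them had a smaller one. Among the 40 miRNAs nearest to it in level, at 153 to 357 CPM, the median SD was 0.243 and 6 had a smaller one. Its rank by level lay between 97 and 124 in the 13 libraries, with the highest rank in lisinopril library 3 and the lowest in irradiated library 4.

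The list of 22 other miRNAs of renal tubule and epithelium, which holds the miR-192 and miR-194, miR-30, miR-200 and miR-10 and miR-196 groups, gave no calls by edgeR with all 13 libraries. In irradiated against control kidneys 0 of 22 were higher and 0 lower by edgeR, 9 had a positive log2 fold change, and the median was -0.06. The smallest p-values belonged to miR-10a-5p, from 396287 ± 117105 to 273025 ± 32197 CPM (-0.54 on the log2 scale, adjusted p = 0.0931), and to miR-192-5p, a miRNA typical of proximal tubule, from 76360 ± 12527 to 51703 ± 13740 CPM (-0.56, adjusted p = 0.134). Of the 22, 16 had a lower log2 fold change than miR-204-5p. DESeq2 called miR-10a-5p lower, beside 37 of 419 miRNAs called in all, 19 higher and 18 lower. The edgeR count of the list depended on irradiated library 4. Without that library 5 of the 22 were lower and 0 higher, against 60 of 429 miRNAs (14%) called in all, 35 higher and 25 lower. These 5 were miR-10a-5p (-0.61, adjusted p = 0.0444), miR-192-5p (-0.71, adjusted p = 0.0361), miR-30a-5p (-0.54, adjusted p = 0.0352), miR-30e-5p (-0.49, adjusted p = 0.0444) and miR-141-3p of the miR-200 family (-0.90, adjusted p = 0.0318). miR-204-5p was at 0.18 in the same fit and did not pass.

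With lisinopril against control, 0 of the 22 were higher and 0 lower by edgeR, and 11 were positive, with a median of -0.0009. The nearest to the threshold were miR-196a-5p, from 306 ± 21.4 to 386 ± 39.3 CPM (0.33, adjusted p = 0.105), and miR-200b-3p of the epithelial miR-200 family, from 3783 ± 348 to 3105 ± 298 CPM (-0.29, adjusted p = 0.105). miR-204-5p stood above 18 of the 22. Between irradiated kidneys with and without the drug the edgeR counts were again 0 and 0, with 13 positive and a median of 0.14, against -0.02 over all miRNAs. miR-196a-5p (0.36, adjusted p = 0.208) and miR-10b-5p (0.47, adjusted p = 0.261) had the smallest p-values there, and miR-204-5p stood above 13 of the 22. limma-voom with sample quality weights called 3 of the 22 higher there, miR-141-3p, miR-10a-5p and miR-196a-5p. It called 33 of 419 miRNAs in all, 16 higher and 17 lower. Without irradiated library 4 edgeR called 2 of the 22 higher with the drug, miR-141-3p (1.04, adjusted p = 0.0321) and miR-196a-5p (0.43, adjusted p = 0.0386), against 11% of all miRNAs called in that fit. For both irradiated groups against control the edgeR counts were 0 and 0 with 9 positive, and miR-30e-5p (-0.37, adjusted p = 0.0979) and miR-10a-5p (-0.33, adjusted p = 0.182) came first. Without irradiated library 4, 1 of the 22, miR-30e-5p, was lower (-0.42, adjusted p = 0.0385), against 12.6% of all miRNAs called.

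**Figure D4:**
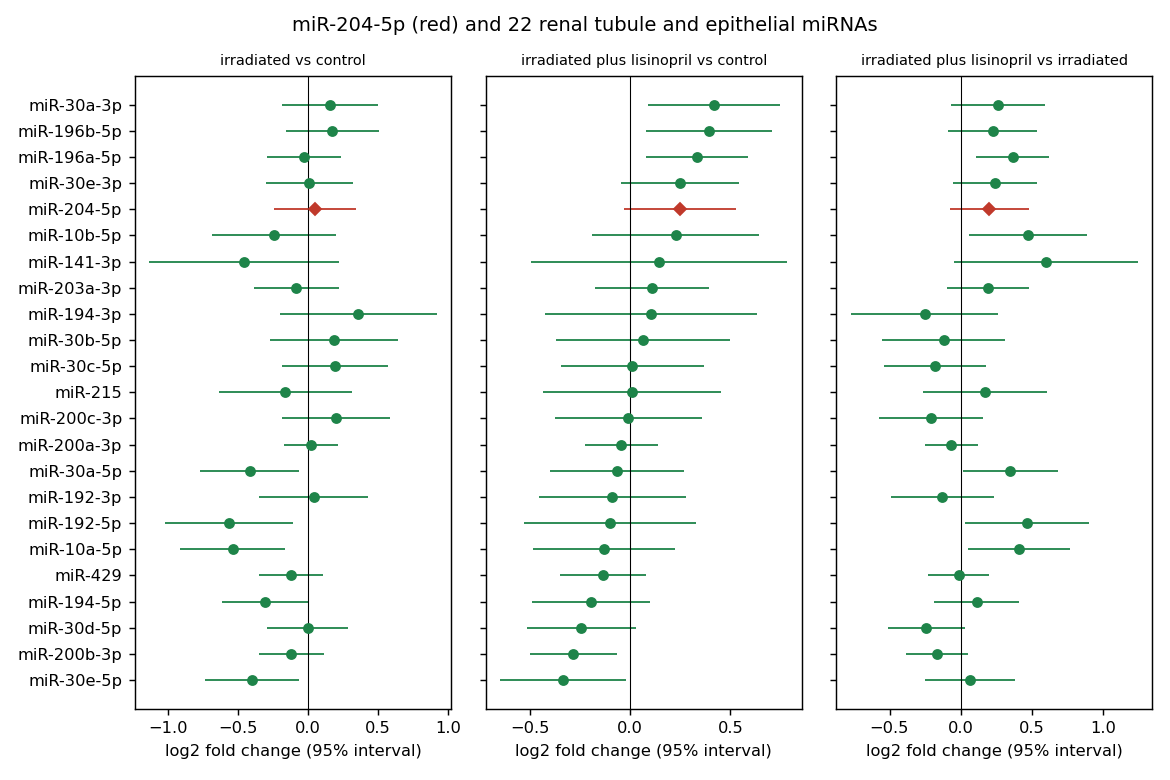
Log2 fold change with 95% interval of miR-204-5p (red) and of 22 miRNAs of renal tubule and epithelium (green) in 3 comparisons, in the order of the middle panel. The interval of miR-204-5p includes 0 in each panel, and 18 of the 22 lie below it in the middle panel.

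The tubule list had no single direction of correlation with miR-204-5p. Over the 13 libraries Pearson's r of log2 CPM with miR-204-5p ran from -0.54 for miR-429 to 0.41 for miR-30a-3p, with a median of 0.04, and it was positive for 12 of 22. Once group means were removed r spread more widely, from -0.85 for miR-196a-5p and -0.79 for miR-141-3p to 0.60 for miR-30c-5p. With group means kept, r was 0.04, -0.36 and 0.36 for these in turn, and 0.19, -0.20 and 0.13 without irradiated library 4. The values removed from group means were not computed without that library. Such correlations describe 13 libraries that share their scaling and their group differences. No p is given for them.

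The 5 miRNAs with the most similar pattern, among 282 with a mean of at least 10 CPM, were miR-351-5p (r = 0.78), miR-3589 (0.64), miR-1249 (0.62), miR-542-5p (0.62) and miR-504 (0.56). Over the 282 the median r was 0.04. All 5 had their lowest value of the irradiated group in irradiated library 4, as miR-204-5p had. Only miR-351-5p also had its lowest value of all 13 libraries there. miR-351-5p, a miRNA of the miR-322 cluster, was at 956 CPM there, against 1237 to 1928 CPM in the other 12 libraries. miR-3589, miR-1249, miR-542-5p and miR-504 stayed within the range of their control libraries there. For miR-542-5p this was 17.3 CPM, against 10.6 to 20.2 CPM in controls. Without that library r fell to 0.56 for miR-351-5p, 0.54 for miR-3589 and 0.54 for miR-504, and was 0.70 for miR-1249 and 0.67 for miR-542-5p. Once group means were removed r was 0.79, 0.66, 0.70, 0.47 and 0.73 in the order given first.

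Of these 5, 4 are annotated on chromosome X in GRCr8 and miR-1249 on chromosome 7, a feature looked at after the 5 were known. Among the 4, miR-351-5p and miR-542-5p are both of the miR-322 cluster. Other compared strands of that cluster had r from -0.08 for miR-542-3p to 0.49 for miR-503-3p. Chromosome X holds 34 of the 274 compared miRNAs that could be placed, or 12.4%. Their r with miR-204-5p ran from -0.49 to 0.78 with a median of 0.09, against a median of 0.02 for miRNAs placed elsewhere. X-linked miRNAs in general were thus not much more alike to miR-204-5p than others. At the opposite end stood miR-155-5p, an inflammatory miRNA of leukocytes named after its value was seen, with r = -0.66, or -0.81 without irradiated library 4.

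**Figure D5:**
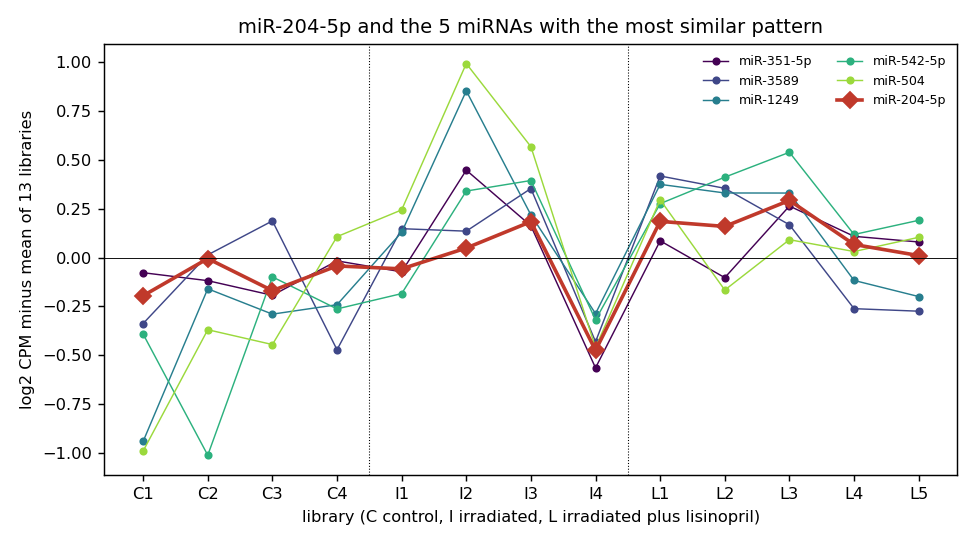
Log2 CPM minus the mean of 13 libraries for miR-204-5p (red) and the 5 miRNAs with the highest r, by library. All 6 lie below their means in irradiated library 4 (I4), where miR-204-5p was at 169 CPM.

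Markers of other cell types were read beside miR-204-5p. The 7 leukocyte miRNAs summed to 1912 to 2362 CPM in controls, 1717 to 2042 CPM in irradiated and 1374 to 1854 CPM in lisinopril-treated kidneys. The last group thus lay below all controls in this sum. The sum leans on its most abundant member, miR-146a-5p, at 1177 ± 259 CPM in controls and 683 ± 234 CPM with lisinopril. It is therefore no measure of a drop in all 7, which did not all move the same way. In irradiated against control kidneys 2 had a positive and 5 a negative log2 fold change, and the same counts held for all irradiated kidneys. With lisinopril against control 1 was positive and 6 were negative. By edgeR none was called with lisinopril against control, and 2 of 7 were lower in all irradiated kidneys against control, where 5.49% of all miRNAs were lower, miR-223-3p of neutrophils (log2 fold change -0.48, adjusted p = 0.0375) and miR-146a-5p, a brake on NF-kB signalling (-0.76, adjusted p = 0.0433). Both calls were near the threshold. With single libraries left out, miR-223-3p kept its call in 5 of 13 fits, and lost it without control library 1, 2 or 4, irradiated library 1 or 3, or lisinopril library 2, 3 or 4 (highest adjusted p = 0.147). miR-146a-5p kept its call in 6 of 13, and lost it without control library 1, 2 or 4, irradiated library 1 or 2, or lisinopril library 2 or 3 (highest adjusted p = 0.149). Neither passed with library totals alone or with other-species miRNAs added, and miR-146a-5p did not pass by limma-voom, with or without quality weights. Without irradiated library 4 the count was 3 of 7, with miR-155-5p lower too (-0.64, adjusted p = 0.0385), beside 54 of 429 miRNAs (12.6%) called, 30 of them lower. Without control library 4 miR-155-5p was the only one of the 7 called, beside 13 of 414 miRNAs lower and 4 higher. In irradiated against control kidneys without irradiated library 4, 2 of the 7 were lower, miR-223-3p (-0.68, adjusted p = 0.0227) and miR-142-5p (-1.13, adjusted p = 0.0327), beside 14% of all miRNAs called in that fit, where edgeR called 0 of the 7 with all libraries. Without control library 3, miR-223-3p was called lower in that comparison and miR-146a-5p with lisinopril against control. Of 414 miRNAs, 6 were called lower in the former fit and 17 in the latter.

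The 6 miRNAs of smooth muscle and fibroblasts summed to 28808 to 40864, 33096 to 38551 and 27909 to 55992 CPM. Of these 1 of 6, miR-214-3p, was higher in all irradiated kidneys by edgeR (0.71, adjusted p = 0.0456), where 2.15% of all miRNAs were higher. None was called with lisinopril against control, but miR-214-3p was called higher there without irradiated library 2, beside 17 of 428 miRNAs called higher. It kept its call in all irradiated kidneys in 6 of 13 fits, and lost it without control library 1, 2 or 4 or lisinopril library 2, 3, 4 or 5 (highest adjusted p = 0.153). It also lost it with scaling by RLE, upper quartile or library totals, with no filter on low counts, with a mean of at least 10 CPM, and by limma-voom. In irradiated against control kidneys edgeR called 0 of 6 with all libraries. With irradiated library 4 left out it called 2, in opposite directions, miR-145-3p lower (-0.64, adjusted p = 0.0352) and miR-214-3p higher (0.99, adjusted p = 0.0243), beside the 14% of all miRNAs called in that fit. Between irradiated kidneys with and without the drug edgeR called 0 of 6, and 3 were higher without irradiated library 4, beside 11% of all miRNAs called in that fit, miR-145-3p (0.72, adjusted p = 0.0346), miR-199a-5p (0.39, adjusted p = 0.0386) and miR-199a-3p (0.38, adjusted p = 0.0386). With lisinopril against control all 6 had a positive log2 fold change with a median of 0.24, close to the 0.25 of miR-204-5p. The median of all tested miRNAs was 0.05. Once group means were removed, r of the 6 with miR-204-5p ran from -0.68 for miR-199a-3p to 0.49 for miR-145-5p, so they did not follow it as a set.

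The 4 endothelial miRNAs, led by miR-126a-5p, summed to 12193 to 15129, 9335 to 14599 and 10672 to 16181 CPM in the 3 groups, and none was called by edgeR in any comparison with all 13 libraries. The same held for the 5 erythroid miRNAs, led by miR-486, at 939 to 2126, 812 to 4254 and 704 to 3518 CPM. It held too for the 6 analysed miRNAs of muscle, neural and endocrine cells, led by miR-375-3p, at 1919 to 2288, 2020 to 2514 and 1734 to 2209 CPM. All 5 erythroid miRNAs had a positive log2 fold change in each comparison with control, with medians of 0.49 to 0.52. With against without the drug 2 of them were positive and 3 negative. With irradiated library 4 left out, miR-126a-5p (0.76, adjusted p = 0.0266) and the neural miR-9a-5p (0.77, adjusted p = 0.0161) were higher with than without the drug. In that fit 11% of all miRNAs were called. The part of these other cell types in the level of miR-204-5p was not tested.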

How the data were processed

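Kidney small RNA from 13 rats (control n = 4, irradiated n = 4, irradiated plus lisinopril n = 5) was made into libraries with a TruSeq small RNA kit, per the labels' protocols. The groups follow the group name in the labels, without litter, batch or pairing. The submitters' processing notes name Trim Galore 0.2.5, Bowtie 1.1.1 and the rn4 build. The assignment and counting of reads are not given in the sources at hand. Values of the deposited table are whole-number read counts with no sign of normalization by the authors.

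edgeR 4.0.16 under R 4.3.3 was run on the 460 rat mature miRNAs: filterByExpr by group (419 kept), TMM factors of 0.787 to 1.19, and a quasi-likelihood fit with a mean per group over all 13 libraries, with Benjamini-Hochberg adjustment over 419 and a threshold of 0.05. The procedure was tested on simulated data. Log2 CPM adds a prior count of 2. The exact permutation tests compare mean log2 CPM, two-sided. Names of 414 of the 460 miRNAs matched the RefSeq sequence table (GRCr8). Alternatives used DESeq2 1.42.0, limma 3.58.1, other scalings and filters, and left out each library in turn.

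Named beside miR-204-5p were miRNAs with its seed, the 5 most similar in pattern, 2 above and below it in control level, and, of the lists, called members or those with the smallest p, the most abundant member and members without values here. The members and the lists were chosen with earlier results of these data known. The planned tests of miR-204-3p and of the ratio of both strands were not run, because only miR-204-5p was analysed here.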

Additional observations from a re-analysis of the deposited data

Results flagged for a closer look

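Of 72 groups checked over the 24 named miRNAs, 2 held a library far from the rest, where chance gives about 1 in 20, or 3.6. No group of miR-204-5p was among them, irradiated library 4 included. The fibroblast miRNA miR-214-3p reached 148 CPM in irradiated library 2, and the 3 remaining irradiated libraries held 64.5 to 75.8 CPM. The endothelial miRNA miR-126a-5p stood at 6998 CPM in lisinopril library 1, while the 4 remaining ones held 10457 to 11709 CPM.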

How the results depend on the processing

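For miR-204-5p the edgeR call (not passed) held in each of the 4 comparisons under every alternative run, 24 for each of the first 3 and 23 for the last. Its adjusted p ranged from 0.229 to 0.985, 0.119 to 0.497, 0.357 to 0.987 and 0.165 to 0.765 for irradiated against control, lisinopril against control, lisinopril against irradiated, and all irradiated against control. When each library was left out in turn its log2 fold change ranged from -0.037 to 0.18, 0.22 to 0.28, 0.06 to 0.28 and 0.11 to 0.21 in that order, and the sign turned only in the first, without irradiated library 3. The permutation difference ranged likewise from -0.058 to 0.16, 0.21 to 0.28, 0.08 to 0.30 and 0.12 to 0.21. Without irradiated library 4 the fourth passed (adjusted p = 0.0317). Adjustment over the 4 then moved the second to the same value, its p staying 0.0159. Those permutation alternatives were added after the data were seen.

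The number of miRNAs called moved more. For irradiated against control it was 7, against 2 with library totals alone, 37 with DESeq2, 1 with only the groups compared and 1 with other-species miRNAs added, and 1 to 60 with single libraries left out. For lisinopril against control it was 26, against 17 with a mean of at least 10 CPM, 50 with limma-voom and sample quality weights, 40 with only the groups compared, 47 with other-species miRNAs added, and 13 to 43. For lisinopril against irradiated it was 0, against 2 each with RLE, library totals alone, a mean of at least 10 CPM and limma-voom, 11 with DESeq2, 33 with quality weights, and 0 to 47. For all irradiated against control it was 32, against 17 with library totals alone, 21 with a mean of at least 10 CPM, 58 with other-species miRNAs added, and 17 to 54. The cause was not tested.

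The list counts under these alternatives were added after the data were seen. Beyond the tubule calls by DESeq2 and quality weights given in the report, the other tools, scalings and filters called 0 of the 22 in each comparison. Other lists gained calls too. With lisinopril against control, miR-199a-5p was called higher with upper quartile scaling, DESeq2, quality weights, only the groups compared and other-species miRNAs added, miR-214-3p higher with quality weights and only the groups compared, miR-363-3p higher with quality weights and other-species miRNAs added, and miR-146a-5p lower by DESeq2. In irradiated against control kidneys miR-223-3p was called lower with upper quartile scaling, a mean of at least 10 CPM, DESeq2 and quality weights, and DESeq2 also called miR-146a-5p lower and miR-214-3p higher. With against without the drug, miR-199a-5p was called higher with quality weights and by DESeq2, and miR-145-3p, miR-9a-5p and miR-126a-5p with quality weights. In all irradiated against control kidneys DESeq2 also called miR-155-5p lower.

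No paired analysis was possible, as the labels give no replicate numbers or pairing. In the last comparison a fit of only the groups compared uses all libraries. At 220 reads, control library 2 limits the precision of the control level.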
